A study of Mus musculus with 21 samples.

Results

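The genes described here encode the shared machinery between G protein-coupled receptors and cyclic nucleotides: heterotrimeric G protein subunits, adenylyl cyclases, subunits of protein kinase A (PKA) and phosphodiesterases. The rule for members used gene symbols and no expression value, but the set was picked with earlier results of these data known, so its shares beside those of all genes are descriptions. Of 75 symbols that matched the name pattern, 3 (Gnas, Gnb1l and Gnb2l1) were left out by name, which left 72 members among the 35266 genes of the deposited tables. The 72 members comprise 15 G protein alpha subunits, 5 beta subunits, 12 gamma subunits, 10 adenylyl cyclases, 6 PKA subunits and 24 phosphodiesterases. Of these, 60 passed the filter on low counts and were tested. The 12 that were not tested are Adcy4, Gna15, Gnat1, Gnat3, Gng8, Gng11, Gng13, Gngt1, Gngt2, Pde4c, Pde6c and Pde6g.

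Neurons were sorted by hand from the hypothalamic arcuate nucleus of male mice on the C57BL/6J background, and each library came from the pooled cells of 1 mouse. AGRP neurons were taken from NPY-hrGFP mice, in which a green fluorescent protein under the Npy gene marks the cells, and POMC neurons from Pomc-GFP mice (the Pomc topazFP line, with a Topaz fluorescent protein), so the reporter and the cell type changed together in every comparison between the 2 neuron types. Each mouse spent 24 hr alone in a fresh cage, either with food (fed) or with water only (food deprived, FD). There were 5 AGRP fed, 6 AGRP FD, 5 POMC fed and 5 POMC FD libraries, from mice aged 46 to 56 days. All groups carried a reporter, and mice without one were not part of the set.

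When a ligand binds its receptor, the alpha subunit of the G protein separates from the beta-gamma pair. Alpha subunits of the Gs type stimulate adenylyl cyclase and those of the Gi/o type inhibit it, and the Gq type acts through phospholipase C. Cyclic AMP releases the catalytic subunits of PKA from its regulatory subunits, and phosphodiesterases end the signal by hydrolysing cyclic AMP, cyclic GMP or both. AGRP neurons promote feeding and POMC neurons restrain it, and many of the hormones and transmitters that act on these cells use such receptors.

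The libraries held between 9822298 and 37663979 gene counts, from 44 to 214 sorted cells, and ERCC spike-in RNA had been added as 1 µl, 10 µl or a volume scaled to the cell number. Agrp and Npy lay between 470 and 10900 CPM in AGRP libraries and did not exceed 26.2 CPM in POMC libraries. CPM are counts relative to the total of the library, here scaled by the trimmed mean of M-values (TMM). Pomc lay between 2180 and 8200 CPM in POMC libraries and did not exceed 24 CPM in AGRP libraries. The summed TPM (counts per transcript length, relative to the total of the library) of 18 markers of astrocytes, oligodendrocytes, microglia, endothelial cells and tanycytes or ependymal cells ranged from 36.8 to 57.3 in AGRP fed, 28.9 to 46.8 in AGRP FD, 33.1 to 41.3 in POMC fed and 26.3 to 56.6 in POMC FD libraries. The highest single marker value was 40.1 TPM (Mbp), 6 of the 18 stayed below a mean of 1 TPM in every group, and no marker was at 0 in every library. Of the 12 markers that could be tested, Aldh1l1 changed in AGRP neurons with FD (log2 fold change 5.91 ± 1.77, SE, q = 0.0284), from a mean of 0.0258 to 1.69 TPM. These markers' part in the results was not tested. In these bulk samples, fewer cells with a transcript and less transcript per cell cannot be told apart.

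By level per transcript length (TPM), the set was dominated by a few members that were high in every group. In 16 of the 72 members the mean exceeded 100 TPM in all 4 groups, while 33 did not exceed a mean of 20 TPM in any group. Gng3, a neuronal gamma subunit, had the highest level, with a mean over libraries of 1137 TPM, followed by the PKA regulatory subunit Prkar1a (1120 TPM) and the beta subunit Gnb1 (913.1 TPM). The highest Gi/o alpha subunit was Gnao1 (693.6 TPM), the highest Gq subunit Gnaq (276.7 TPM), and Gna13 led the G12 type (54.14 TPM). Gnal, the olfactory form of the stimulatory alpha subunit, reached 190.7 TPM. Cyclases and phosphodiesterases were far lower: the leading members were Adcy5 (65.83 TPM), the cyclic AMP phosphodiesterase Pde8b (52.37 TPM), the lipid-binding subunit Pde6d of the cyclic GMP class (69.58 TPM) and the dual-substrate Pde2a (33.94 TPM). Above 20 TPM on average were 34 members in AGRP fed, 31 in AGRP FD, 33 in POMC fed and 35 in POMC FD libraries. Over all genes of the deposited tables the counts, in the same order, were 7943, 7210, 7539 and 7795.

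Whether food deprivation changes this machinery in AGRP neurons was addressed by comparing FD with fed libraries. In AGRP neurons 15 of the 60 tested members (25%) changed (edgeR quasi-likelihood test, Benjamini-Hochberg adjusted p, given as q, under 0.05), where 10.3% of all 16513 tested genes did. Of the 15, 6 were higher in FD (10% of members, against 5.87% of all genes) and 9 were lower (15%, against 4.43%). The members that were lower were the phosphodiesterases Pde7b, Pde4a, Pde4b, Pde2a and Pde1b, the alpha subunits Gnal and Gnai1, the gamma subunit Gng7 and the PKA regulatory subunit Prkar2b. The members that were higher were the cyclase Adcy2, the calcium-dependent phosphodiesterase Pde1c, the beta subunit Gnb4, the gamma subunit Gng4 and the PKA subunits Prkar1a and Prkacb. With a log2 change over 1 and a mean above 20 CPM in at least 1 group also required, 8 members remained (13.3%, against 4.46%), and in 10 members the FD and fed libraries did not overlap (16.7%, against 7.65%). The level could be met in any of the 4 groups. Pde4b, 1 of the 8, met it through POMC libraries only (means of 30.6 CPM in fed and 38.1 CPM in FD). Its AGRP means were 12.6 CPM in fed and 3.75 CPM in FD libraries. The median log2 change over the 60 members was 0.115, and that over all tested genes was −0.0232. Scaled to the spike-ins in place of TMM, all 15 kept their direction and 1, Pde7b, passed.

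**Figure D1:**
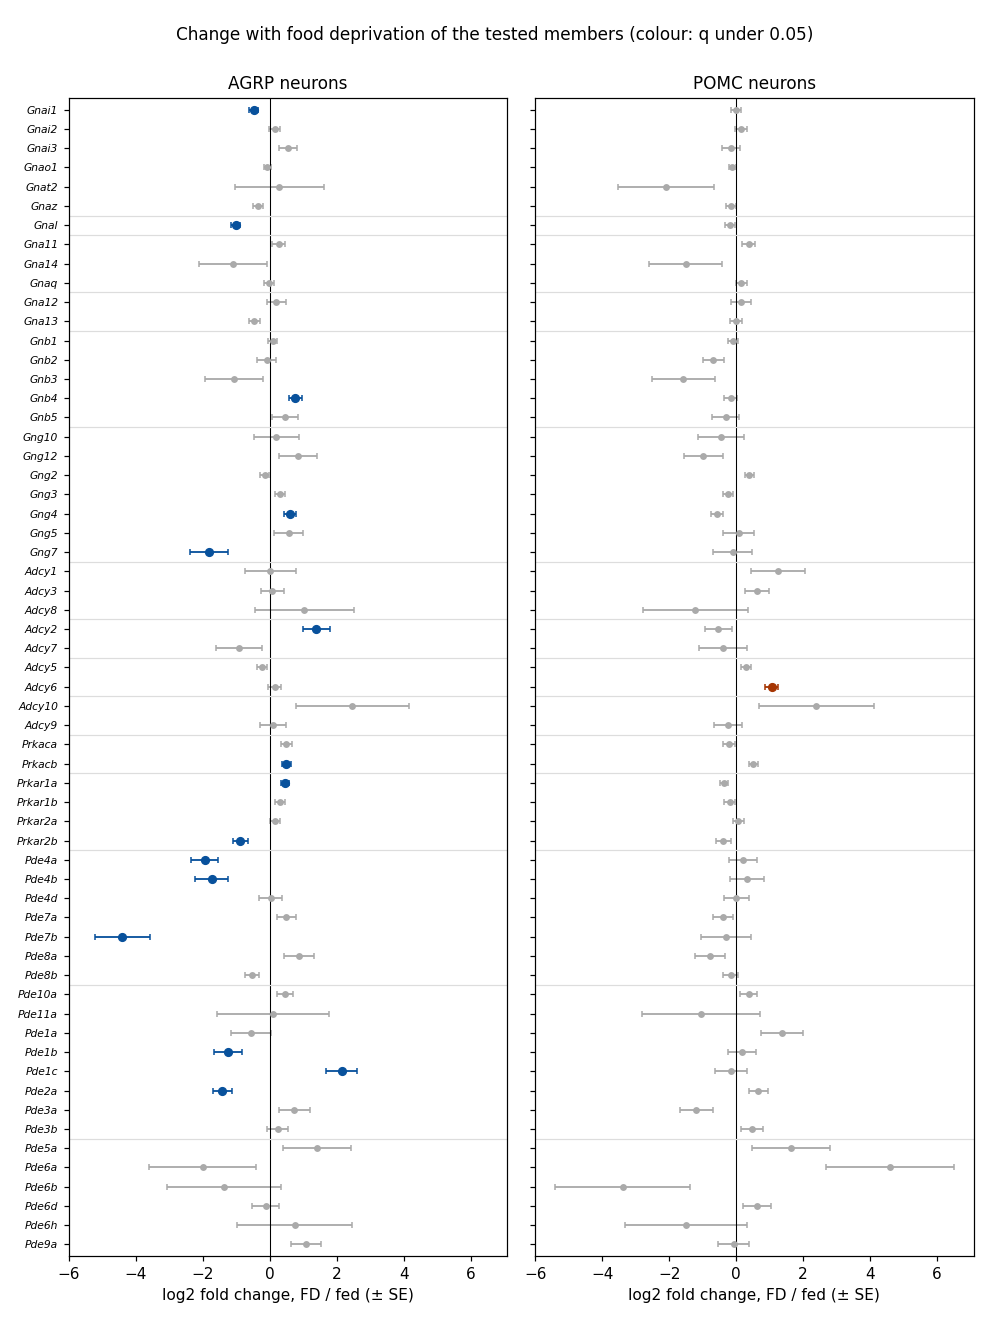
Log2 fold change (FD over fed, horizontal axis) ± SE from the quasi-likelihood fit for the 60 tested members in AGRP neurons (left) and POMC neurons (right), with grey lines between classes. Coloured points passed q under 0.05: 15 members in AGRP neurons (6 to the right of 0 and 9 to the left) and Adcy6 alone in POMC neurons.

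The largest fall (Pde7b) and the largest rise (Pde1c) among the 15 members that passed were phosphodiesterases. Of 21 tested in AGRP neurons, 5 fell, 1 rose and 15 did not pass, with a median log2 change of 0.017. Counts by class, here and below, are descriptions, next to the 10.3% of all tested genes that changed in this comparison. All values that follow for single libraries are in CPM scaled by the trimmed mean of M-values (TMM), and library values of a fed group are in the order of the replicate numbers.

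Pde7b (chr10:20398003-20725078, mm10), a high-affinity cyclic AMP phosphodiesterase, lay at 12.3, 4.62, 11.6, 13.9 and 6.75 CPM in the AGRP fed libraries. In the 6 AGRP FD libraries it ranged from 0 to 2.09 CPM with a median of 0.23, so every FD library was below every fed library. It fell by 4.41 on the log2 scale (SE 0.82, q = 0.000515), a fit that rests on 46 counts in all FD libraries, 28 of them in a single library and none in 2 libraries. Within spike-in sets and age classes the difference lay between −3.99 and −2.45 (log2 of CPM plus 0.5).

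Pde4a (chr9:21165713-21213248) belongs to the PDE4 family, the main cyclic AMP-specific phosphodiesterases of brain. It lay at 33.7, 71.8, 39.8, 42.1 and 46.9 CPM in AGRP fed libraries and between 2.30 and 32.3 CPM (median 9.56) in FD libraries, again without overlap. The fall was 3.84-fold (log2 −1.94 ± 0.40, q = 0.0016). The FD library nearest to the fed group was replicate 1, and the other FD libraries were at or below 11.4 CPM. Pde4b (chr4:102087542-102607259), of the same family, had lower counts: 25.2, 7.98, 10.1, 14.0 and 5.47 CPM in fed libraries and 0.23 to 8.53 CPM (median 3.76) in FD libraries. These ranges overlapped, and Pde4b fell by 1.75 on the log2 scale (SE 0.50, q = 0.0219). Its call was lost without fed replicate 1 (q = 0.113) or FD replicate 4 (q = 0.0507), with limma-voom (q = 0.0501) and with the AGRP groups alone (q = 0.0963). The third measured PDE4 gene, Pde4d, was at 37.8 ± 6.58 TPM (SD, n = 5) in fed and 32.3 ± 10.5 TPM (n = 6) in FD libraries, with a fitted log2 difference of 0.017 ± 0.348 (SE, q = 0.99).

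Pde2a (chr7:101421690-101512829), which hydrolyses both nucleotides and is stimulated by cyclic GMP, lay at 63.7, 56.2, 36.0, 40.3 and 59.9 CPM in AGRP fed libraries and between 10.9 and 28.3 CPM (median 20.1) in FD libraries. All FD values were below all fed values, and the fall was 2.68-fold (log2 −1.42 ± 0.28, q = 0.000918). Pde2a shares exonic sequence with Gm45837 on the same strand, which was not among the counted genes.

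Within the PDE1 family, which calcium and calmodulin activate, Pde1b and Pde1c moved in opposite directions. Pde1c (chr6:56069820-56369634) lay at 13.9, 18.9, 33.9, 21.2 and 64.2 CPM in AGRP fed libraries and between 90.7 and 185.5 CPM (median 136.0) in FD libraries. No FD library reached down to the fed range, and Pde1c rose 4.4-fold (log2 2.14 ± 0.47, q = 0.00272). Pde1b (chr15:103503297-103530052) lay at 19.7, 37.5, 31.5, 43.1 and 10.6 CPM in fed libraries and between 4.13 and 23.4 CPM (median 11.5) in FD libraries, with overlap. Its fall (log2 −1.25 ± 0.41, q = 0.0474) was close to the threshold and was kept in only 2 of 11 fits without 1 library, those without fed replicate 5 or FD replicate 2, with q up to 0.152. It was also lost with the age block (q = 0.0535), the spike-in set block (q = 0.0601), the replicate block (q = 0.0869), sorted cells as a covariate (q = 0.0536), no count filter (q = 0.0542) or the AGRP groups alone (q = 0.0648). The other family member, Pde1a, was at 7.43 CPM in fed and 5.01 CPM in FD libraries on average (log2 −0.57 ± 0.59, q = 0.642).

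Summed over the 8 cyclic AMP-specific phosphodiesterase genes, the deposited level was 173.6 ± 15.3 TPM (SD, n = 5) in AGRP fed and 112.8 ± 19.8 TPM (n = 6) in AGRP FD libraries, against 143.5 ± 33.8 and 143.5 ± 27.7 TPM (n = 5 each) in POMC fed and FD libraries. Pde4a supplied 16.7 ± 3.22% of the fed AGRP sum and 5.57 ± 4.14% of the FD sum. TPM values are shares of each library's total and were not TMM scaled, so these sums describe composition and were not tested.

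**Figure D2:**
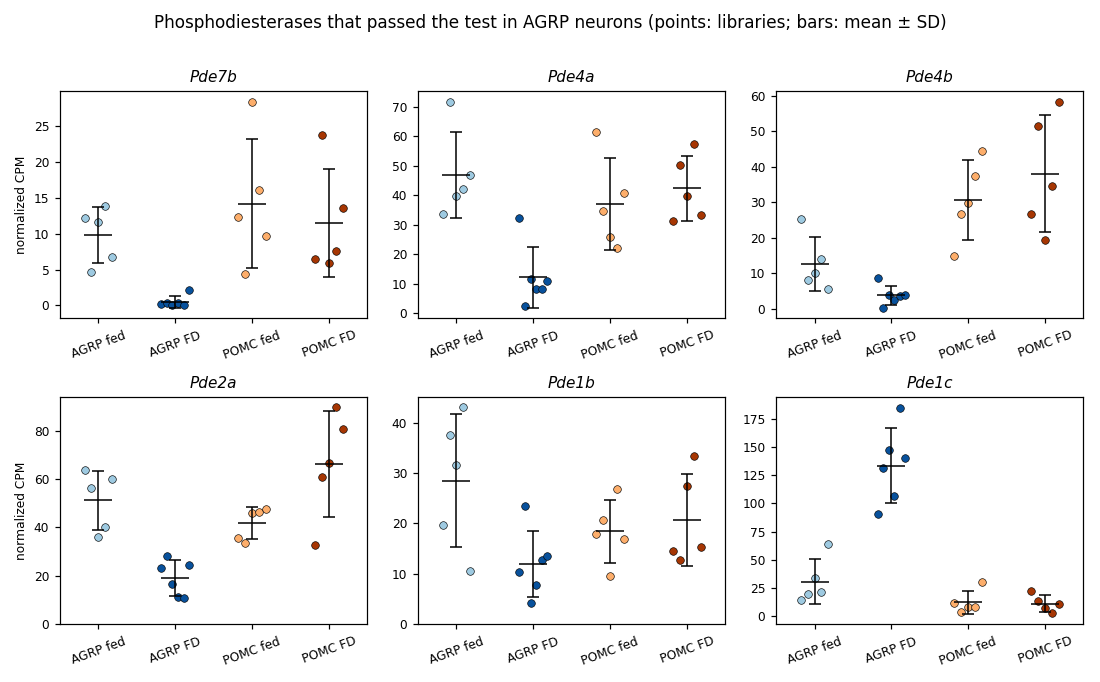
TMM-normalized CPM (vertical axis) of the 6 phosphodiesterases that passed in AGRP neurons, in each library (points) of the 4 groups, with mean ± SD (black bars). Pde7b was at most 2.09 CPM in AGRP FD libraries, Pde1c rose to between 90.7 and 185.5 CPM there, and the POMC groups overlap in all 6 panels.

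Among G protein alpha subunits, 2 of 12 tested changed in AGRP neurons, and both fell. Gnas, the Gs subunit left out by name, was not among the 12. Gnal was the member with the smallest q. It lay at 470.4, 529.2, 432.0, 623.5 and 508.0 CPM in AGRP fed libraries and between 216.1 and 305.0 CPM (median 241.3) in FD libraries, a 2.04-fold fall without overlap (log2 −1.03 ± 0.14, q = 1.2e-05). Its q stayed under 0.05 in all 11 fits without 1 library. Gnal shares exonic sequence with Mppe1 on the opposite strand, and reads were counted without strand. Mppe1 itself had means of 2.26 CPM in fed and 3.3 CPM in FD libraries. Among members that passed in some comparison, exons of other genes also overlap Adcy2, Adcy6, Gnb5, Gng12, Pde2a, Pde3a, Pde5a and Pde9a. The partners of Adcy2, Gnb5, Pde2a, Pde5a and Pde9a were not among the counted genes, so their reads could have been counted for the member. This was not tested. Gnai1 (chr5:18265134-18360413), an inhibitory alpha subunit, lay at 199.9, 200.6, 195.9, 226.0 and 317.0 CPM in fed libraries and between 138.5 and 211.6 CPM (median 156.3) in FD libraries. The ranges overlapped, and the fall was small (log2 −0.49 ± 0.14, q = 0.0243). The Gnai1 call was lost without fed replicate 5 (q = 0.131), FD replicate 4 (q = 0.0545) or FD replicate 5 (q = 0.0577), with the replicate block (q = 0.0817) and with the AGRP groups alone (q = 0.0635). Gnao1, the most abundant alpha subunit, had a log2 difference of −0.09 ± 0.11 (q = 0.713) and Gnaq one of −0.02 ± 0.15 (q = 0.967).

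Of the beta subunits 1 of 5 and of the gamma subunits 2 of 7 tested changed. Gnb4 (chr3:32580331-32616585) lay at 79.4, 67.6, 79.9, 101.3 and 75.5 CPM in AGRP fed libraries and between 108.8 and 168.7 CPM (median 129.1) in FD libraries, so the groups did not overlap. It rose 1.69-fold (log2 0.76 ± 0.20, q = 0.0121). Gnb1, which was far more abundant, had a log2 difference of 0.08 ± 0.13 (q = 0.789).

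Gng4 (chr13:13784328-13827897) rose from 79.7, 107.4, 90.6, 122.2 and 124.7 CPM in fed libraries to between 132.6 and 170.2 CPM (median 163.1) in FD libraries. The lowest FD library stood just above the highest fed library (log2 0.60 ± 0.18, q = 0.0269), and the call was lost without fed replicate 1 (q = 0.093), 2 (q = 0.0501) or 3 (q = 0.0798) and with upper-quartile scaling (q = 0.0514). Gng7 (chr10:80948623-81014945), a gamma subunit known for pairing with Gnal in striatal neurons, lay at 24.9, 31.3, 18.7, 27.0 and 34.7 CPM in fed libraries and between 0.40 and 16.8 CPM (median 6.66) in FD libraries. It fell by 1.81 on the log2 scale (SE 0.57, q = 0.0363) without overlap, but the spread among FD libraries was wide and only 4 of 11 fits without 1 library kept the call (q up to 0.0753). The call was lost without fed replicate 1, 2, 4 or 5 and without FD replicate 3, 4 or 5, with sorted cells as a covariate (q = 0.0676) and with the AGRP groups alone (q = 0.0666). Gng3, the most abundant member, had a log2 difference of 0.29 ± 0.15 (q = 0.275).

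Of 9 adenylyl cyclases tested, Adcy2 rose and the other 8 did not pass in AGRP neurons. Adcy2 (chr13:68620042-68999541) is a calcium-insensitive cyclase that beta-gamma pairs can stimulate together with Gs. It lay at 55.3, 75.2, 59.3, 45.5 and 53.8 CPM in AGRP fed libraries and between 108.2 and 177.5 CPM (median 165.6) in FD libraries. All FD libraries were above all fed libraries, a 2.61-fold rise (log2 1.38 ± 0.39, q = 0.0209), and the call was lost without fed replicate 4 (q = 0.058). By TPM, Adcy2 made up 23.5 ± 4.61% (SD, n = 5) of the summed cyclase level in AGRP fed and 45.7 ± 6.21% (n = 6) in AGRP FD libraries, against 10.7 ± 5.6% and 5.37 ± 3.98% (n = 5 each) in POMC fed and FD libraries. Adcy5, a cyclase inhibited by calcium and by Gi, was the leading cyclase in AGRP fed libraries with 40.4 ± 2.53% and made up 25.8 ± 3.93% in FD libraries, and its fitted log2 difference was −0.25 ± 0.15 (q = 0.344).

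**Figure D3:**
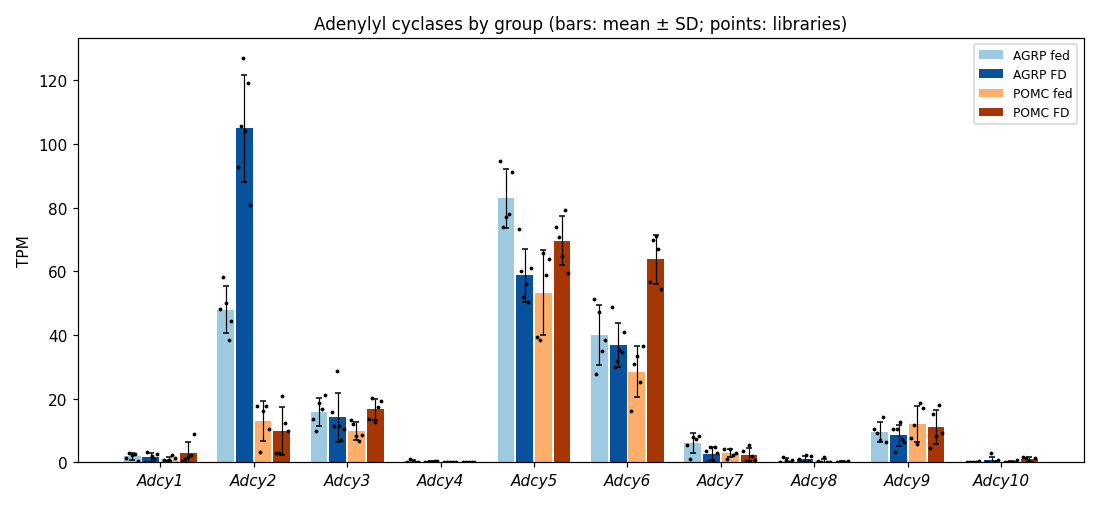
Deposited TPM (vertical axis) of the 10 adenylyl cyclases in the 4 groups, with bars for the mean, error bars for the SD and points for libraries. Adcy2 had a mean of 105 TPM in AGRP FD and 47.97 TPM in AGRP fed libraries, and Adcy6 had a mean of 63.85 TPM in POMC FD and 28.55 TPM in POMC fed libraries.

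PKA subunits changed by less than 2-fold. Of 6 tested, 2 rose, 1 fell and 3 did not pass in AGRP neurons. Prkar1a (chr11:109649404-109669656), the most abundant regulatory subunit, lay at 1386, 1354, 1115, 1267 and 1215 CPM in AGRP fed libraries and between 1375 and 1944 CPM (median 1809) in FD libraries. A single FD library lay inside the fed range (log2 0.44 ± 0.12, q = 0.0126). The catalytic subunit Prkacb (chr3:146729578-146812960) lay at 878.5, 903.0, 845.3, 1234 and 1184 CPM in fed libraries and between 1231 and 1748 CPM (median 1390) in FD libraries, with fed replicate 4 inside the FD range (log2 0.49 ± 0.13, q = 0.0158). The Prkacb call was lost without fed replicate 1 (q = 0.0533), 2 (q = 0.0501) or 3 (q = 0.0594). The other catalytic gene, Prkaca, had a log2 difference of the same size (0.49 ± 0.17) at q = 0.0694.

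Prkar2b (chr12:31958475-32061296), the regulatory subunit of the type II kinase that is prominent in brain, lay at 186.7, 211.7, 132.3, 221.6 and 191.2 CPM in AGRP fed libraries and between 63.1 and 177.8 CPM (median 91.8) in FD libraries. The groups overlapped through fed replicate 3 and FD replicate 1, and the fall was 1.84-fold (log2 −0.88 ± 0.22, q = 0.00754). By TPM, Prkar2b supplied 9.24 ± 1.19% (SD, n = 5) of the summed regulatory subunit level in AGRP fed and 4.2 ± 1.88% (n = 6) in AGRP FD libraries. Prkar1a supplied 56.1 ± 4.19% and 61.8 ± 5.18%, and the summed level was 1949 ± 133.5 and 2009 ± 161.5 TPM. These sums were not TMM scaled, so they describe composition and were not tested. The Prkar1a means in fed and FD libraries were 1093 and 1243 TPM, but 1268 and 1717 TMM-scaled CPM. In POMC libraries Prkar2b supplied 3.27 ± 0.262% in fed and 3.05 ± 0.546% in FD libraries (n = 5 each).

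**Figure D4:**
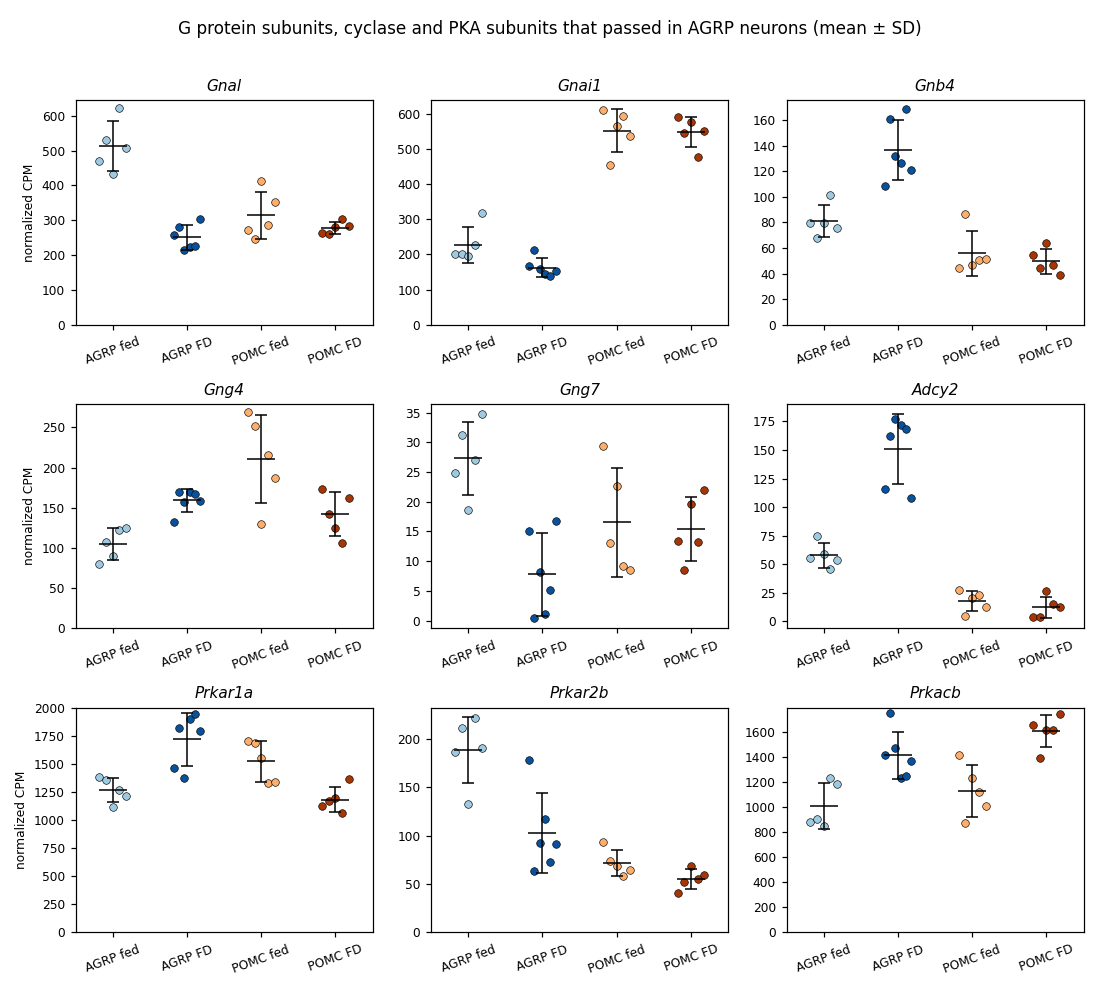
TMM-normalized CPM (vertical axis) of the 9 G protein, cyclase and PKA members that passed in AGRP neurons, per library (points), with mean ± SD (black bars). In AGRP FD libraries Gnal was at most at 305.0 CPM and Adcy2 at least at 108.2 CPM, while neither gene separated the POMC groups.

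Cyclic AMP reaches transcription through CREB proteins, which bind the letters TGACGTCA and, more weakly, TGACG, the first letters of the longer motif. RefSeq promoter windows (GRCm38, 250 bases before to 50 after a start site, on both strands, with several windows for some genes) were found for 55 of the 72 members. The full motif stood in 1.79% of all 32851 windows and, among members, in Prkar1a only. The short motif stood in 20.8% of all windows and 21.9% of the 96 member windows, and by gene in 23% of all genes and 34.5% of the members. Of the 15 members that changed in AGRP neurons, 13 had a window and 7 of them held the short motif. One stretch of 30 bases is given for each of these 7 genes, 5′ to 3′ along the gene, with the motif (or its reverse complement CGTCA) in capitals, so that members that rose and fell can be read side by side.
Prkar1a, higher in FD, chr11:109650889-109650918, plus strand, 49 bases before a start site: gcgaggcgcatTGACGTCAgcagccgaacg
Prkacb, higher in FD, chr3:146813031-146813060, minus strand, 102 bases before: ggggcttgaccgCGTCActtccggcgcgcc
Gng4, higher in FD, chr13:13784255-13784284, plus strand, 40 bases before: gtgacgcaccagTGACGtcggcggcggcgg
Gng7, lower in FD, chr10:81001457-81001486, minus strand, 109 bases before: ccagagtggaacCGTCAccctctgctccct
Pde4a, lower in FD, chr9:21184039-21184068, plus strand, 50 bases before: ggcacagctcgaCGTCAggctggggaggag
Pde4b, lower in FD, chr4:102421509-102421538, plus strand, 34 bases before: gatttggctgcaCGTCAattttctcatctg
Pde2a, lower in FD, chr7:101450522-101450551, plus strand, within the first bases after a start site: ggggcgcaggagCGTCAcggctgctgcaag
The Gng4 stretch holds a second copy near its start, left in lower case. A match describes letters only and does not show binding.

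In POMC neurons, FD changed 1 of the 60 tested members (1.67%), where 0.375% of all tested genes changed. That member was Adcy6 (chr15:98589993-98607633), a cyclase inhibited by calcium and by Gi. It lay at 36.5, 65.6, 60.7, 46.7 and 65.6 CPM in POMC fed libraries and at 103.5, 123.9, 128.1, 119.2 and 98.1 CPM in POMC FD libraries. Every FD library was above every fed library, and Adcy6 rose 2.08-fold (log2 1.06 ± 0.20, q = 0.00659). Its q stayed under 0.05 in all 10 fits without 1 library, and its log2 change fell below 1 (0.94) in the fit without fed replicate 1. Scaled to the spike-ins, the median log2 change of all genes was −1.11 and that of Adcy6 −0.01, which is 1.1 above that median. Such a distance from the median leaves out the shift of all genes. Adcy6 shares exonic sequence with Gm29331 on the opposite strand, whose means were 0.74 CPM in POMC fed and 1.37 CPM in POMC FD libraries. The 10 µl spike-in set held POMC FD libraries only and the set scaled to cell number held POMC fed libraries only, so these sets and FD cannot be told apart; within the 1 µl set (3 against 3 libraries) the difference was 1.04. Adcy6 was also the only member with a log2 change over 1 and a mean over 20 CPM (1.67% of members, 0.266% of all genes). Calls among all genes were 0.182% higher and 0.194% lower.

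The other members did not pass in POMC neurons by the edgeR test. At an unadjusted p under 0.05 there were 10 of 60 members (6 higher and 4 lower), and limma-voom and DESeq2 each called 2, Adcy6 and Prkacb. No share of all genes was set beside these counts, so they are descriptions only. Prkacb lay at 1417, 868.5, 1229, 1121 and 1010 CPM in POMC fed and at 1659, 1395, 1612, 1619 and 1745 CPM in POMC FD libraries, with a log2 difference of 0.51 ± 0.14 (q = 0.0885) next to its 0.49 ± 0.13 in AGRP neurons. Pde1a did not overlap between the groups, a pattern found in 2 members (3.33%) and 2.35% of all genes. It lay at 27.3, 12.3, 26.4, 14.4 and 24.7 CPM in POMC fed and at 86.0, 45.8, 41.9, 43.6 and 52.3 CPM in FD libraries, with a log2 difference of 1.36 ± 0.62 (q = 0.366). The median log2 difference over the members was −0.127, and over all genes −0.024.

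Whether the response to FD differed between the neuron types was tested as an interaction, the change in AGRP neurons less that in POMC neurons. It passed for 10 of the 60 members (16.7%), against 6.71% of all genes. In 5 members it was above 0 (8.33%, against 4.08%), and in 5 below 0 (8.33%, against 2.63%). With the size and level criteria, 5 members remained (8.33%, against 4.55%). The members above 0 were Pde1c (2.29 ± 0.66, q = 0.0313), Adcy2 (1.91 ± 0.56, q = 0.0357), Gng4 (1.17 ± 0.26, q = 0.00464), Gnb4 (0.92 ± 0.29, q = 0.0459) and Prkar1a (0.80 ± 0.17, q = 0.00277). Those below 0 were Pde7b (−4.11 ± 1.09, q = 0.0195), Pde4a (−2.14 ± 0.58, q = 0.0215), Pde2a (−2.09 ± 0.40, q = 0.00132), Adcy6 (−0.92 ± 0.27, q = 0.0364) and Gnal (−0.85 ± 0.21, q = 0.0101). Values are log2 differences ± SE, and for 9 of these members the change with FD itself passed in AGRP neurons only. Scaled to the spike-ins, none of the 10 passed by the edgeR test, and the interaction was 0.06 for Adcy6 and 0.03 for Gnal, with the other 8 on the same side of 0.

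Apart from Adcy6, the members behind these differences did not separate the POMC fed from the POMC FD libraries. Pde2a lay at 35.5, 33.4, 45.9, 46.5 and 47.5 CPM in POMC fed and at 32.9, 60.8, 66.7, 89.9 and 80.9 CPM in POMC FD libraries (log2 0.67 ± 0.29, q = 0.335). Pde7b ranged from 4.37 to 28.5 CPM in POMC fed and from 5.97 to 23.8 CPM in POMC FD libraries, and Pde4a from 22.1 to 61.6 and from 31.3 to 57.3 CPM. Gng4 ranged from 129.6 to 269.5 CPM in POMC fed and from 105.9 to 173.8 CPM in POMC FD libraries (log2 −0.57 ± 0.19, q = 0.163), and Prkar1a from 1326 to 1706 and from 1061 to 1362 CPM (−0.37 ± 0.12, q = 0.17). Over the fits without 1 of the 21 libraries, the interaction passed in all 21 for Pde7b, Pde2a, Gnal, Gng4 and Prkar1a. It passed in 20 for Pde4a (lost without AGRP fed replicate 2, q = 0.0505), in 15 for Pde1c (q up to 0.102, without POMC fed replicate 5), in 11 for Adcy6 (q up to 0.0807, without AGRP fed replicate 1), and in 8 each for Adcy2 (q up to 0.0771, without POMC fed replicate 1) and Gnb4 (q up to 0.129, without POMC fed replicate 2). The Adcy6 and Gnb4 interactions were also lost with the spike-in set block (q = 0.0627 and 0.102), the replicate block (0.0781 and 0.0888), sorted cells as a covariate (0.054 and 0.0573) and no count filter (0.0592 and 0.0596). The Gnb4 interaction passed in 2 of 10 alternative fits, spike-in scaling included, and that of Adcy6 in 5. That of Pde1c was lost with limma-voom (q = 0.0542). The median over the members was 0.0604, against 0.00654 over all genes.

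The equipment of the neuron types in the fed state was compared directly. Of the 60 members, 8 (13.3%) differed between AGRP and POMC neurons of fed mice, against 7.57% of all genes. Higher in AGRP neurons were 4 members (6.67%, against 3.33%) and lower were 4 (6.67%, against 4.24%). With the size and level criteria there were 5 (8.33%, against 4.02%), and 8 members did not overlap between the groups (13.3%, against 8.93%). The median log2 difference was 0.289 over members and −0.0116 over all genes. Scaled to the spike-ins, all 8 kept their direction and 1, Pde5a, passed. Pde5a met the filter on low counts only through AGRP libraries, where it was higher, so its pass is a description.

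Gnai1 was the member with the smallest q between fed AGRP and POMC neurons. Its AGRP fed values of 195.9 to 317.0 CPM lay below 610.7, 453.8, 563.6, 593.8 and 537.0 CPM in POMC fed libraries (log2 −1.28 ± 0.15, q = 3.25e-07). Gnaz, an alpha subunit of the Gi/o class that resists pertussis toxin, was also lower in AGRP neurons: 147.7, 171.2, 174.0, 142.2 and 163.9 CPM against 268.5, 247.2, 279.6, 264.0 and 218.8 CPM (log2 −0.68 ± 0.15, q = 0.00265). Gng4 was lower in AGRP neurons, with no overlap (log2 −1.01 ± 0.19, q = 0.000382). Pde9a (chr17:31386233-31476310), a cyclic GMP-specific enzyme, lay at 5.49, 17.8, 4.14, 12.2 and 5.79 CPM in AGRP and at 24.3, 51.1, 18.6, 19.6 and 16.1 CPM in POMC fed libraries (log2 −1.51 ± 0.47, q = 0.0407). The Pde9a call was kept in 4 of 10 fits without 1 library (q up to 0.19, without POMC fed replicate 2), and was lost also without AGRP fed replicate 1, 3, 4 or 5 or POMC fed replicate 1 and with sorted cells as a covariate (q = 0.095).

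Prkar2b was higher in AGRP than in POMC neurons of fed mice, where POMC values were 93.7, 73.7, 68.6, 57.9 and 64.4 CPM, all below the lowest AGRP value of 132.3 CPM (log2 1.40 ± 0.23, q = 8.64e-05). Adcy2 lay at 27.7, 4.74, 20.2, 22.8 and 13.0 CPM in POMC fed libraries, all below the AGRP range of 45.5 to 75.2 CPM (log2 1.71 ± 0.41, q = 0.00652). Gnal was higher in AGRP neurons (log2 0.71 ± 0.15, q = 0.00182), with POMC values between 246.9 and 412.3 CPM. Pde5a (chr3:122729157-122859374), the cyclic GMP phosphodiesterase that sildenafil inhibits, lay at 6.23, 0.44, 3.53, 8.59 and 10.6 CPM in AGRP fed libraries and at or below 0.48 CPM in POMC fed libraries, where it had 17 counts in all. Its log2 difference was 5.31 ± 1.26 (q = 0.00568), and the groups overlapped through AGRP fed replicate 2.

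Between the neuron types of FD mice, 19 of 60 members differed (31.7%), against 18.6% of all genes. Of these, 11 were higher in AGRP neurons (18.3%, against 9.28%) and 8 lower (13.3%, against 9.27%). The size and level criteria left 11 (18.3%, against 8.11%), and 15 did not overlap (25%, against 11.4%). The median log2 difference over the members was 0.0589 and over all genes −0.00383. AGRP FD libraries enter this comparison and that of FD with fed AGRP neurons, so the calls are not independent of each other. Scaled to the spike-ins, the median of all genes was 1.1 and 9 of the 19 passed; Adcy6 (0.45) and Gnaz (0.23) then lay above 0, but below that median.

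Of the 21 phosphodiesterases tested, 9 differed, 4 higher and 5 lower in AGRP neurons, where 18.6% of all tested genes did. These 9 were among the 19 members. Pde1a was lower in AGRP FD libraries, at 0.20 to 10.95 CPM (median 3.95), than in POMC FD libraries, at 41.9 to 86.0 CPM (log2 −3.43 ± 0.63, q = 0.000149). Pde1c went the other way, with 2.26 to 21.8 CPM in POMC FD libraries (log2 3.63 ± 0.51, q = 2.85e-06). Pde3a (chr6:141249268-141505940), a dual-substrate enzyme inhibited by cyclic GMP, was higher in AGRP FD libraries, at 24.4 to 64.5 CPM (median 30.7), against 1.57 to 9.79 CPM in POMC FD libraries (log2 3.18 ± 0.52, q = 2.72e-05). Pde4b (−3.34 ± 0.52, q = 1.66e-05), Pde7b (−4.64 ± 0.83, q = 0.000111), Pde4a (−1.79 ± 0.40, q = 0.00152) and Pde2a (−1.79 ± 0.28, q = 1.77e-05) were lower in AGRP neurons. Pde5a (5.08 ± 1.21, q = 0.00271) and Pde8a (1.81 ± 0.45, q = 0.00427) were higher, and Pde5a had 45 counts in POMC FD libraries, 44 of them in replicate 2. Without that library the fitted Pde5a difference was 9.41. Here too Pde5a was a tested member only through its AGRP libraries.

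The G protein and cyclase members of the FD comparison included Gnai1 (−1.75 ± 0.14, q = 1.46e-10), Gnaz (−0.89 ± 0.14, q = 2.14e-05) and Adcy6 (−0.62 ± 0.19, q = 0.0197), all lower in AGRP neurons; the Adcy6 call was lost without POMC FD replicate 3 (q = 0.0526), with the age block (q = 0.08) and with the spike-in set block (q = 0.079). Adcy2 was 12.3-fold higher in AGRP neurons (3.62 ± 0.44, q = 2.47e-07), with 3.49 to 26.4 CPM in POMC FD libraries. Gnb4 (1.45 ± 0.20, q = 2.89e-06) and Gnb5 (1.58 ± 0.39, q = 0.00394), a beta subunit that partners regulators of G protein signalling, were higher too. Gng12 was higher in AGRP FD libraries, at 9.68 to 82.7 CPM (median 21.1), against 0.86 to 10.7 CPM (log2 2.98 ± 0.62, q = 0.000628), with a slight overlap. Prkar1a (0.54 ± 0.12, q = 0.00095) and Prkar2b (0.90 ± 0.22, q = 0.00394) were higher, and Prkar1b (0.45 ± 0.16, q = 0.0474) passed narrowly and was kept in 3 of 11 fits without 1 library, those without AGRP FD replicate 5 or 6 or POMC FD replicate 5 (q up to 0.131). The Prkar1b call was lost with the age block (q = 0.252), the spike-in set block (q = 0.314), the replicate block (q = 0.0635), sorted cells as a covariate (q = 0.0536) and no count filter (q = 0.0647).

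**Figure D5:**
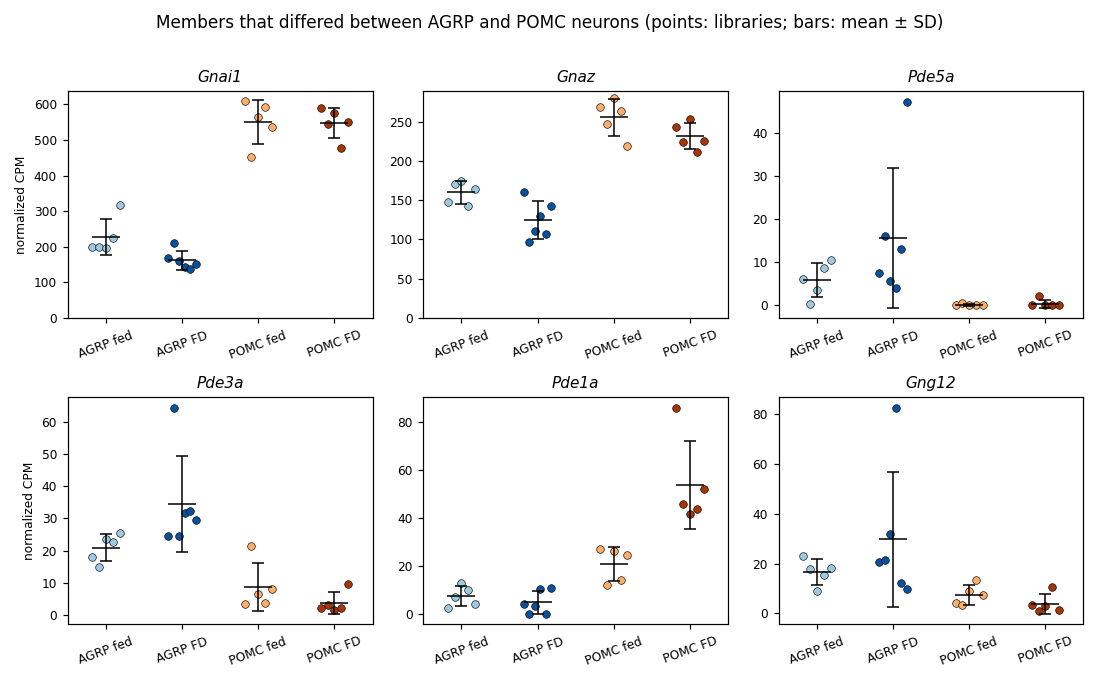
TMM-normalized CPM (vertical axis) of 6 members that differed between AGRP (blue) and POMC (orange) neurons, in each library (points), with mean ± SD (black bars). Gnai1 and Gnaz separated the neuron types in the fed and in the FD state, while Pde3a, Pde1a and Gng12 passed the edgeR test in the FD state only. Their fed log2 differences had the same sign (1.27, −1.5 and 1.16), and their interactions did not pass that test (q = 0.0883, 0.194 and 0.2). In the fed state Pde3a passed with limma-voom (q = 0.0425) and Pde1a with the compared groups fitted alone (q = 0.0414).

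Mice younger than 50 days were found in the AGRP groups only (2 fed and 3 FD). Among mice over 50 days, all 8 members called in the fed state (3 AGRP against 5 POMC libraries) and all 19 called in the FD state (3 against 5) kept their direction, although the age block left 17 of those 19 past the threshold. Within AGRP neurons, the 15 members called with FD kept their direction among mice under 50 days (3 FD against 2 fed), among those over 50 days (3 against 3) and, within the latter, among the libraries with 10 µl of spike-in (2 against 2). The same libraries had made the calls, and a member without overlap between its groups must keep its direction in any subset. These counts of kept directions are therefore descriptions and not separate tests. In AGRP neurons the mice over 50 days were those given 1 or 10 µl and the younger mice were those given a volume scaled to cell number, so age and spike-in set cannot be told apart there. The 1 µl volume of AGRP FD replicate 2 (50 sorted cells) could belong to either kind of set, and it was counted as scaled to cell number.

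The nearest neighbours of the members in the pathway were counted from a list of 58 other symbols: PKA anchors and inhibitors, cyclic AMP-gated exchange factors, the CREB family, PKA substrate inhibitors, G protein modulators, receptor kinases and arrestins, phospholipase C beta genes, and makers and kinases of the cyclic GMP branch. Of the 51 that could be tested, 3 rose and 5 fell in AGRP neurons with FD (15.7%, against 10.3% of all genes), with a median log2 change of −0.0402. Crem, which encodes transcription factors that respond to cyclic AMP, rose from 16.9 ± 7.75 to 65.0 ± 26.3 CPM (log2 1.94 ± 0.38, q = 0.000896), beta-arrestin 1 (Arrb1) from 55.7 ± 13 to 141.6 ± 36.5 CPM (1.35 ± 0.20, q = 3.91e-05), and the anchor Akap11 by 0.39 ± 0.12 (q = 0.0332). The anchor Akap5, which holds PKA at synapses, fell from 66.8 ± 6.01 to 15.2 ± 9.88 CPM (−2.13 ± 0.36, q = 0.000138), and the PKA inhibitor Pkia from 171.8 ± 15.6 to 91.7 ± 19.7 CPM (−0.91 ± 0.19, q = 0.00134); the ± after CPM is the SD (n = 5 and 6). Rapgef3 (−1.88 ± 0.59, q = 0.0362), a cyclic AMP-gated exchange factor, Plcb1 (−1.34 ± 0.42, q = 0.039) and the guanylyl cyclase subunit Gucy1a3 (−1.12 ± 0.28, q = 0.00793) also fell.

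In POMC neurons 0 of these 51 genes passed the edgeR test with FD, 6 had an unadjusted p under 0.05, limma-voom called 0 and DESeq2 called 2. The last 3 counts also stand without a share of all genes. The interaction passed for 5 of them (9.8%, against 6.71%): Crem (3.36 ± 0.54, q = 0.000172) and Arrb1 (1.51 ± 0.29, q = 0.00119) above 0, and Akap5 (−2.21 ± 0.51, q = 0.00694), Pkia (−1.32 ± 0.27, q = 0.00216) and Gucy1a3 (−1.37 ± 0.40, q = 0.0357) below 0. Crem had means of 26.5 CPM in POMC fed and 9.96 CPM in POMC FD libraries (log2 −1.41 ± 0.39, q = 0.0905), which enters its interaction. The POMC differences were −0.16 for Arrb1, 0.08 for Akap5, 0.42 for Pkia and 0.24 for Gucy1a3. Between AGRP and POMC neurons 9 of the 51 differed in the fed state (17.6%, against 7.57%) and 14 in the FD state (27.5%, against 18.6%).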

How the data were processed

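RNA of hand-sorted neurons was amplified without molecular identifiers and sequenced by the authors, who trimmed reads with cutadapt 1.7.1, removed abundant sequences with Bowtie2 2.1.0, aligned to mm10 with STAR 2.4.0i and counted genes without strand with HTSeq 0.6.1p1. They deposited a count table and a TPM table, the latter from counts and summed exon length. Counts of spike-ins and the counting program's summary entries (24.2 to 52.1% of a library without a feature) were left out here.

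One quasi-likelihood model over the 4 groups was fitted with edgeR 4.0.16 to the 16513 genes with CPM over 1 in at least 3 libraries, with TMM scaling and Benjamini-Hochberg adjustment over all of them. Errors of log2 changes are standard errors derived from the F statistic. Every member with q under 0.05 may be named, as may the highest member of each class; others are given as values. The limit that 0 counts allow (3 counts) lay at 0.0912 to 0.295 normalized CPM per library, for counting error only. Scripts were tested on simulated data. Limma-voom (limma 3.58.1), DESeq2 1.42.0, other scalings, blocks and fits without 1 library were alternatives. The members, the related genes and the markers were chosen with earlier results of these data known. Replicates are separate mice, and n counts mice.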

Additional observations from a re-analysis of the deposited data

Results flagged for a closer look

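Among the 25 members that passed in some comparison, 97 groups of libraries with a mean of at least 1 CPM were searched. A library that stood apart from its group by Dixon's criterion was found in 15. For normally distributed values chance alone gives about 1 in 20, or 4.85. The search used CPM without a log scale, so that rate may not hold here. Apart from the Gng4 value, those that stood apart were the highest of their group. In AGRP fed libraries the one that stood apart was replicate 5 for Gnai1 (317 CPM). In AGRP FD libraries it was replicate 4 for Gng12 (82.7 CPM), replicate 1 for Gng4 (133 CPM, the lowest) and Pde4a (32.3 CPM), replicate 2 for Pde3a (64.4 CPM) and Prkar1b (686 CPM), and replicate 6 for Pde5a (47.3 CPM). In POMC fed libraries it was replicate 2 for Gnb4 (86.6 CPM), Pde3a (21.5 CPM) and Pde9a (51.1 CPM), and replicate 5 for Pde1c (29.8 CPM). In POMC FD libraries it was replicate 1 for Gnb5 (32.1 CPM) and Pde1a (86 CPM), replicate 4 for Gng12 (10.7 CPM) and replicate 5 for Pde3a (9.79 CPM). POMC fed replicate 2 accounted for 3 of the 15.

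The response to food deprivation differed between AGRP and POMC neurons by the interaction test for 10 members. The change in AGRP less that in POMC neurons, on the log2 scale, was 2.29 for Pde1c, 1.91 for Adcy2, 1.17 for Gng4, 0.923 for Gnb4, 0.804 for Prkar1a, −0.853 for Gnal, −0.923 for Adcy6, −2.09 for Pde2a, −2.14 for Pde4a and −4.11 for Pde7b.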

How the results depend on the processing

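In AGRP neurons with FD, between 1 and 17 members passed under the alternatives and 10 to 16 in fits without 1 library, against 15 as reported. No share of all genes under the same setting was set beside the counts for alternatives, here or elsewhere. They are descriptions only, and a general shift in the number of calls cannot be told apart from one of the members. Spike-in scaling moved the median log2 change of all genes to −0.0801 in AGRP neurons and −1.11 in POMC neurons (1.04 for the interaction, 1.1 for AGRP against POMC neurons with FD), and left 1 member in AGRP neurons with FD, 0 in POMC neurons, 1 between neuron types in the fed state, 9 in the FD state and 0 for the interaction; with the size and level criteria it left 0, 0, 0, 7 and 0. Under it Adcy6 in POMC neurons was −0.0128 (1.1 above the median of all genes), its FD difference between neuron types 0.448 and its interaction 0.0643, the Gnaz difference in the FD state 0.234 and the Gnal interaction 0.0271, all reversed. Relative to the median of all genes every called member kept its direction. That distance takes out the shift of all genes that spike-in scaling brought in, so it is not a separate check on the reversals. Upper-quartile scaling moved the AGRP median to −0.106 and reversed no call.

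By all 3 criteria, 8 members in AGRP neurons became 5 with those groups fitted alone and 14 with no minimum change, the 5 between neuron types in the fed state became 3 with sorted cells as a covariate, and the 5 of the interaction became 9 with no minimum change. The single POMC call became 2 with limma-voom, DESeq2, the age block and the spike-in set block. Without 1 library at a time, counts by all 3 criteria ranged from 4 to 8 (AGRP), 0 to 1 (POMC), 3 to 6 (fed state), 11 to 12 (FD state) and 3 to 6 (interaction), and counts by q alone from 1 to 2 (POMC), 7 to 10 (fed state), 18 to 20 (FD state) and 6 to 11 (interaction). Counts by all 3 criteria were 4 in AGRP neurons without fed replicate 4 or FD replicate 4 and 5 without fed replicate 1 or FD replicate 3 or 5; 0 in POMC neurons without fed replicate 1, where the Adcy6 change was 0.94 (2 members passed by q alone); 3 in the fed state without AGRP fed replicate 1 or 3 or POMC fed replicate 1; and 3 for the interaction without AGRP fed replicate 1 or AGRP FD replicate 5. Without AGRP fed replicate 1, q alone gave 10 members in AGRP neurons and 6 for the interaction. A threshold of 5 TPM gave 52 members in AGRP fed and 47 in AGRP FD libraries.

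Same-numbered libraries are different mice and did not deviate together (correlations from −0.113 to 0.0535), so the numbers do not pair them. In 1 of 20 same-numbered pairs the first library correlated best with its own number. With the replicate block, 14 members passed in AGRP and 1 in POMC neurons with FD, 10 and 20 between neuron types in the fed and FD states, and 9 for the interaction. The interaction has no fit of fewer groups, since all 4 enter it. Low counts limit Pde7b in AGRP FD and Pde5a in POMC libraries. The cause of these shifts was not tested. The values within spike-in sets and age classes, and the TPM counts without 1 library, were alternatives chosen after seeing the data.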
